A study of Mus musculus with 2 samples.

Results

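The genes of the proteasome were described in gastrocnemius, a muscle of the calf, taken from 2 female mice of the hybrid strain B6CASTF1/J. The mice were 2 months old, untreated as far as the labels say, and were read by long-read RNA sequencing from 2 µg of starting RNA per library. The labels define a single group of 2 libraries, replicate 2 and replicate 1, and give both the same donor identifier although the animals carry different numbers, so whether 2 animals were used rests on those numbers. Members were the protein-coding genes whose symbol begins with Psm, a letter from a to g and a number. The rule found 50 genes, of which 48 carried a read in either library, among 15371 annotated genes with a read. The libraries held 1359923 reads in replicate 2 and 1349298 reads in replicate 1. Each long read was counted once, for the transcript model to which it was assigned, so a count stands for sequenced molecules and the level is given in CPM, the count scaled to a library of 1000000 reads.

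The proteasome is the cell's main machine for the breakdown of ubiquitin-tagged proteins. Its core is a barrel of stacked alpha and beta rings, with the cutting sites on 3 beta subunits inside the barrel. A regulatory cap is built of a base, which holds ubiquitin receptors and a ring of ATPases that unfold the substrate, and a lid, which removes the ubiquitin. Other activators can take the place of the cap, immune signals can exchange the cutting subunits for inducible ones, and dedicated chaperones assemble the particle. In skeletal muscle this pathway is known for the removal of contractile proteins during wasting.

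The name rule caught 1 gene that is no proteasome gene. Psmc3ip encodes a partner of meiotic recombination and had 1 read in replicate 2 and 3 reads in replicate 1. The testis alpha subunit Psma8 and the thymus beta subunit Psmb11 had 0 reads in both libraries. A count of 0 allows up to 2.21 CPM in replicate 2 and 2.22 CPM in replicate 1, with 3 reads as the limit. The retrocopy Psme2b had 1 read in replicate 2 and 0 reads in replicate 1. The 4 annotated pseudogenes named after Psmb5, Psmb6 and Psmb7 had 0 reads in both libraries.

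The tissue label was checked against 10 skeletal muscle markers, all of which carried reads. They summed to 15.2% of all reads in replicate 2 and 14.7% in replicate 1. Of these, 6 were higher and 3 were lower in replicate 2 in the test between libraries described below. Myh7, the myosin of slow fibres, had 4414 reads in replicate 2 and 422 reads in replicate 1. Markers of other cell types were read in both libraries, and all those of fat and nerve were lower in replicate 2. The 6 adipocyte markers summed to 145 reads in replicate 2 and 1520 reads in replicate 1, and the 6 nerve and Schwann cell markers to 132 reads and 906 reads in the same order. The 7 endothelial markers summed to 122 reads in replicate 2 and 175 reads in replicate 1, and the 6 fibroblast markers to 2566 reads and 2582 reads in the same order. Fewer cells of a type and less RNA per cell cannot be told apart in such bulk tissue. The part of these fibre and cell types in the values below was not tested, except where a measurement is given.

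Together the members took 0.422% of the reads in replicate 2 and 0.434% in replicate 1, which is 5733 and 5856 reads. The 95% Wilson intervals, which cover counting error only, were 0.411% to 0.433% in replicate 2 and 0.423% to 0.445% in replicate 1, and they overlap. The mean level over the libraries was 4278 ± 87.9 CPM (SD, n = 2). The base of the cap was the class with the most reads, 37.7% of the members' reads in replicate 2 and 36.9% in replicate 1, or 2162 and 2163 reads. The lid had 21.8% of them in replicate 2 and 25.0% in replicate 1, or 1251 and 1466 reads. The alpha ring had 977 reads in replicate 2 and 890 reads in replicate 1. The beta ring had 1002 reads in replicate 2 and 994 reads in replicate 1. Assembly factors, with 153 reads in replicate 2 and 131 reads in replicate 1, and the activators with the inhibitor, with 169 and 173 reads in the same order, were each a small share.

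Among the 31 genes of the rings, base and lid, levels in CPM lay close together. The mean level of 25 of them lay within 2-fold of their median of 108.9 CPM, and the highest gene was 10.9 times the lowest in replicate 2 and 12.9 times in replicate 1. The order was alike in the libraries, with Pearson's r of 0.958 on log2(CPM + 1) and Spearman's rho of 0.948 across the 31 genes, which share libraries and depth and are not independent replicates. Divided by the length of the longest annotated coding transcript, the levels ran from 270.6 CPM per kilobase for Psmb6 to 25.8 for Psmd11, so the order depends on the scale. CPM, which counts each read once, is the main scale here. The length used can exceed that of the transcript read. It was 1983 bases for Psmd8, whose reads lay mostly on Psmd8-202 of 1391 bases.

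**Figure D1:**
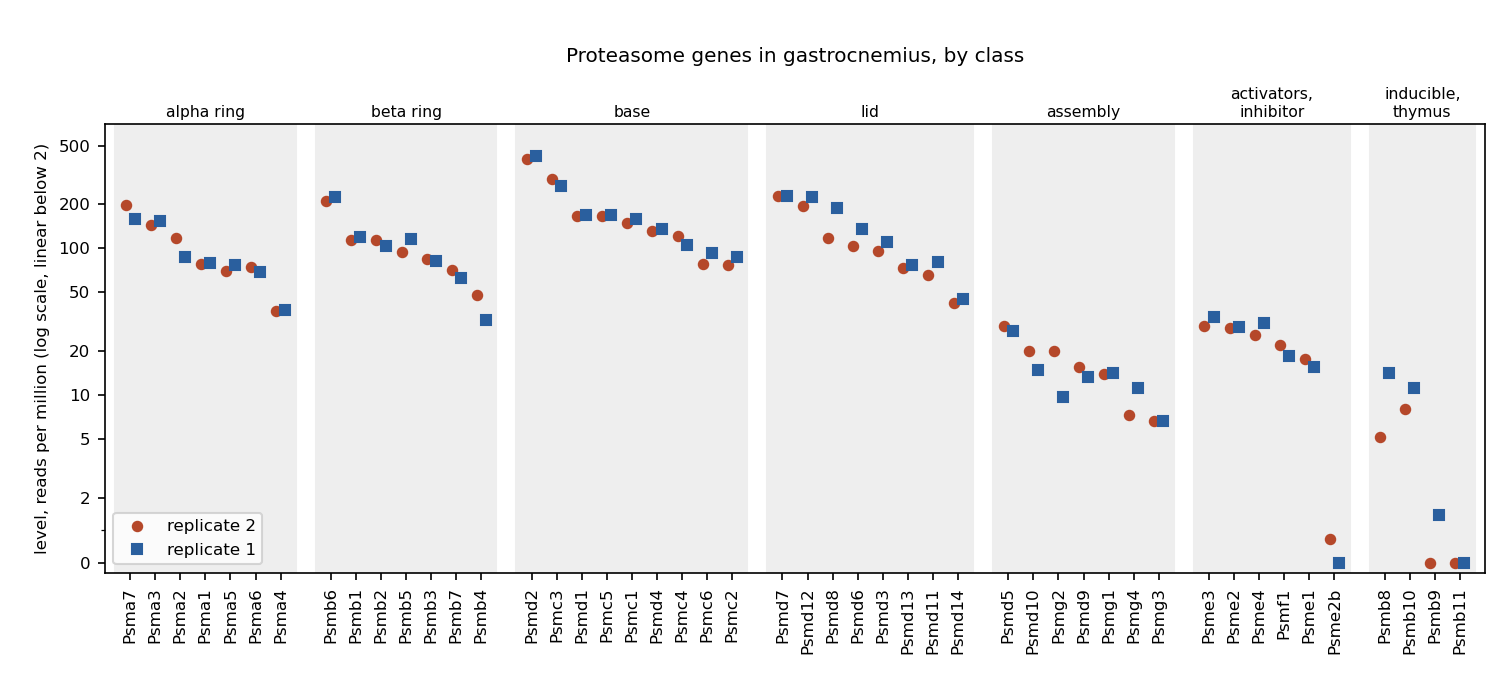
Level of each proteasome gene in CPM (vertical axis, log scale and linear below 2) in replicate 2 (circles) and replicate 1 (squares), grouped by class. The rings, base and lid lie between 32.6 and 422.4 CPM, and Psmb4 in replicate 1, at 32.6 CPM, is the point among them that lies below an activator, Psme3 at 34.1 CPM.

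In the alpha ring, which gates the entry to the barrel, Psma7, Psma3 and Psma2 were the most abundant in CPM. Psma7 had 267 reads in replicate 2 and 213 reads in replicate 1, or 177.1 ± 27.2 CPM (SD, n = 2). Psma3 had 197 reads in replicate 2 and 206 reads in replicate 1. Psma2 had 159 reads in replicate 2 and 117 reads in replicate 1, and its adjusted p was 0.137 in the Fisher's exact test between the libraries described below. The least abundant were Psma5, Psma6 and Psma4. Psma5 had 95 reads in replicate 2 and 103 reads in replicate 1, Psma6 had 101 and 93 reads in the same order, and Psma4 had 51 reads in each library. Psma1, the remaining subunit, had 107 reads in each library.

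In the beta ring, Psmb6, the caspase-like cutting subunit, stood above the others with 284 reads in replicate 2 and 301 reads in replicate 1, or 216.0 ± 10.1 CPM (SD, n = 2). Psmb1 had 156 reads in replicate 2 and 160 reads in replicate 1, and Psmb2 had 156 and 139 reads in the same order. Both are non-catalytic subunits. Psmb5, the chymotrypsin-like cutting subunit, had 129 reads in replicate 2 and 156 reads in replicate 1. Psmb7, the trypsin-like one, had 97 reads in replicate 2 and 84 reads in replicate 1. The least abundant were Psmb4, with 65 reads in replicate 2 and 44 reads in replicate 1, then Psmb7, then Psmb3 with 115 and 110 reads in the same order. The subunits that cut were therefore not at equal levels: Psmb6 had 208.8 CPM in replicate 2 and 223.1 CPM in replicate 1, against 71.3 and 62.2 CPM for Psmb7, and the order held per kilobase, at 270.6 for Psmb6 and 57.6 for Psmb7.

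In the base, Psmd2, the scaffold that binds ubiquitin-like domains of shuttle factors, had the most reads of all members, with 555 in replicate 2 and 570 in replicate 1, or 415.3 ± 10.1 CPM (SD, n = 2). Among the 6 ATPases, Psmc3 had 402 reads in replicate 2 and 357 reads in replicate 1 and was the highest in both. The other large scaffold, Psmd1, had 227 reads in replicate 2 and 228 reads in replicate 1, and Psmc5, also an ATPase, had 224 and 228 reads in the same order. The least abundant base genes were the ATPases Psmc4, with 164 reads in replicate 2 and 142 reads in replicate 1, Psmc6, with 106 and 126 reads, and Psmc2, with 105 and 117 reads in the same order. The ATPase Psmc1 had 202 reads in replicate 2 and 212 reads in replicate 1. The ubiquitin receptor Psmd4 had 177 reads in replicate 2 and 183 reads in replicate 1.

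In the lid, Psmd7, the inactive partner of the deubiquitinase, had 310 reads in replicate 2 and 305 reads in replicate 1, or 227.0 ± 1.35 CPM (SD, n = 2). Psmd14, the deubiquitinase itself, was the least abundant lid gene in CPM, with 58 reads in replicate 2 and 61 reads in replicate 1. Per kilobase, Psmd7 had a mean of 143.6 CPM and Psmd14 had 28.5 CPM. The scaffold subunit Psmd12 had 263 reads in replicate 2 and 303 reads in replicate 1. Psmd11 had 90 reads in replicate 2 and 109 reads in replicate 1, and Psmd13 had 99 and 104 reads in the same order. Psmd3, a scaffold subunit, had 131 reads in replicate 2 and 148 reads in replicate 1. Of the 8 lid genes, 7 had fewer CPM in replicate 2, where 4874 of the 9341 genes tested in all had a log2 ratio below 0. The lid as a class had a fold of 0.847 (95% interval 0.785 to 0.913) of replicate 2 over replicate 1. Without Psmd8, the fold was 0.893 (0.823 to 0.969). Sem1, a small lid subunit that the name rule does not catch, had 211 reads in replicate 2 and 165 reads in replicate 1. With Sem1 added to all 8 genes, the fold was 0.889 (0.829 to 0.954). The fold with both changes at once was not computed, so no value is given for the lid with Sem1 and without Psmd8. Each fold given here includes Psmd8 or leaves out Sem1, which was higher in replicate 2. They therefore do not show whether the lid as a whole, apart from Psmd8, differed between the libraries.

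Psmd8, a lid subunit encoded at chr7:29174188-29180701 on the minus strand of mm10, was the member that differed between the libraries. It had 160 reads in replicate 2 and 254 reads in replicate 1, or 117.7 and 188.2 CPM. The fold was 0.625 (95% interval 0.513 to 0.762). Fisher's exact test, two-sided, set the reads of each gene and the remaining reads of the library against each other between replicates, and for Psmd8 its p after Benjamini-Hochberg adjustment over all genes tested was 1.10e-04. Such a test compares 1 library with the other, not 1 population of mice with another, and covers counting error only. Psmd8 was the 1 member called among 45 tested, while 7.82% of the 9341 genes tested were called in either direction, 3.56% were called lower and 4.25% were called higher in replicate 2. With edgeR's exact test and an assumed dispersion of 0.01 between libraries, 0 members were called and the adjusted p of Psmd8 was 0.218.

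Without adjustment, 6 of the 45 members had p under 0.05, or 13.3%, against 17.8% of all genes tested. The median log2 ratio of replicate 2 over replicate 1 was -0.04 in the members and -0.01 in all genes tested. The median size of that ratio was 0.17 in the members and 0.34 in all genes, beside a median of 214 reads summed in the members and 53 in all genes, and deeper genes have less counting error. The largest ratios among members with at least 20 reads were those of Psmg2, Psmb4, Psma2, Psmd10 and Psma7, from 0.97 to 0.31 on the log2 scale. The smallest were those of Psmb8, Psmd8, Psmg4, Psmb10 and Psmd6, from -1.30 to -0.39. Psmd6, a lid subunit, had 140 reads in replicate 2 and 182 reads in replicate 1 with an adjusted p of 0.14 in the Fisher's exact test.

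**Figure D2:**
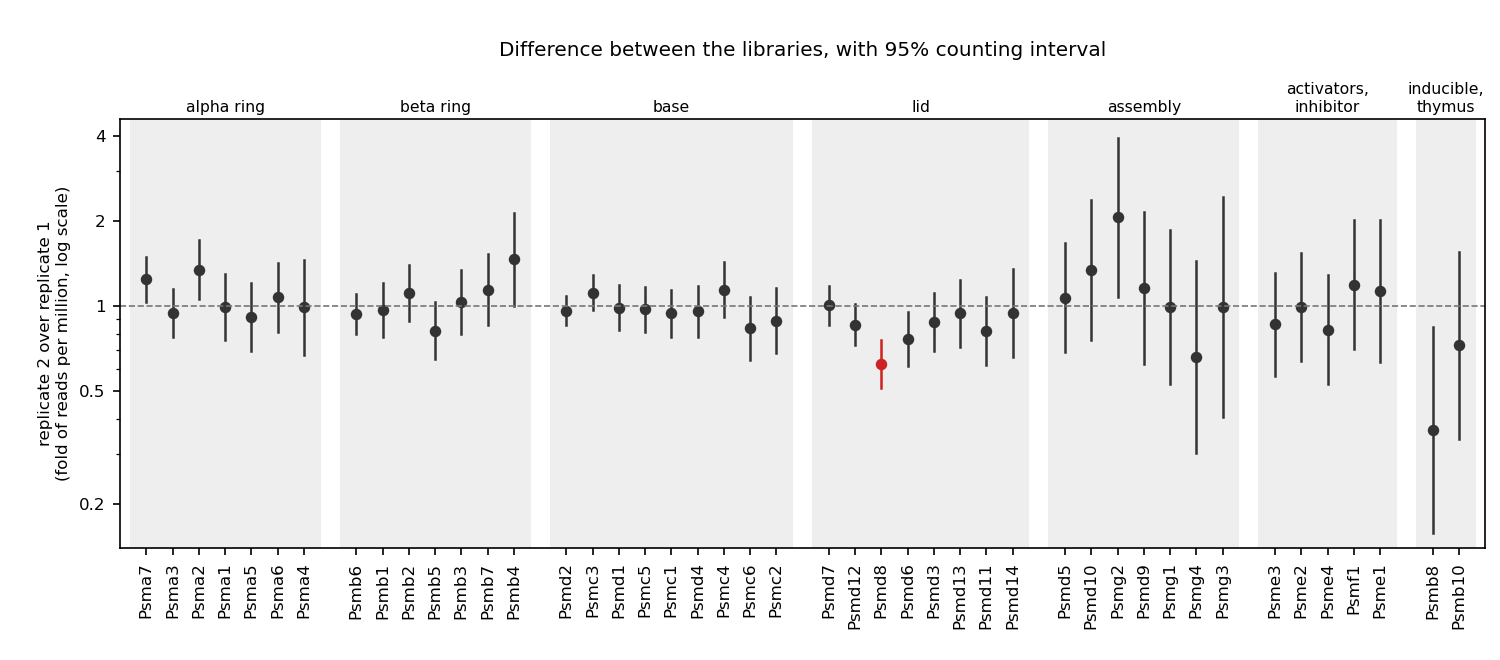
Fold of the CPM of replicate 2 over replicate 1 (vertical axis, log scale) for the 45 members tested, grouped by class; the lines are 95% counting intervals. Psmd8, in red at 0.625, is the member that passed the adjusted test, and the lid genes except Psmd7 lie below 1.

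The inducible subunits that make the immunoproteasome were a small share of each catalytic pair. Psmb8, which takes the place of Psmb5, had 7 reads in replicate 2 and 19 reads in replicate 1, or 5.15% (95% interval 2.52% to 10.2%) and 10.9% (7.06% to 16.3%) of the reads of its pair. Psmb10, which takes the place of Psmb7, had 11 reads in replicate 2 and 15 reads in replicate 1, or 10.2% (5.78% to 17.3%) and 15.2% (9.40% to 23.5%) of its pair. The third inducible subunit was the rarest. Psmb9, which takes the place of Psmb6, had 0 reads in replicate 2 and 2 reads in replicate 1. The 0 of 284 reads allows a share of up to 1.06% in replicate 2, and the share in replicate 1 was 0.660% (0.181% to 2.37%). The inducible subunits summed to 18 reads in replicate 2 and 36 reads in replicate 1, a fold of 0.496 (95% interval 0.284 to 0.867) that lies below 1. Over all 3 pairs replicate 2 had 3.41% (2.17% to 5.32%) and replicate 1 had 6.24% (4.54% to 8.52%), a mean of 4.82% ± 2.00 (SD, n = 2). The intervals of the shares overlap, and neither Psmb8, with an adjusted p of 0.153, nor Psmb10, with 0.8004, passed the Fisher's exact test.

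Genes of immune cells and of the interferon response had these values in the same libraries. The 13 leukocyte and macrophage markers, all with a read, summed to 162 reads in replicate 2 and 224 reads in replicate 1. Of the 8 that were tested, Lyz2 was lower in replicate 2, with 34 reads against 70 reads in replicate 1, and the other 7 did not pass. Ptprc, a pan-leukocyte marker, had 1 read in replicate 2 and 0 reads in replicate 1. Of the 8 interferon response genes, 5 were tested, 3 passed the test as lower in replicate 2 and Nlrc5 was at 0 in both libraries. Their sums were 211 reads in replicate 2 and 529 reads in replicate 1, most of them from H2-D1, a class I antigen-presenting gene, with 136 and 361 reads in the same order. The part of these cells or of that response in the shares of the inducible subunits was not tested.

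**Figure D3:**
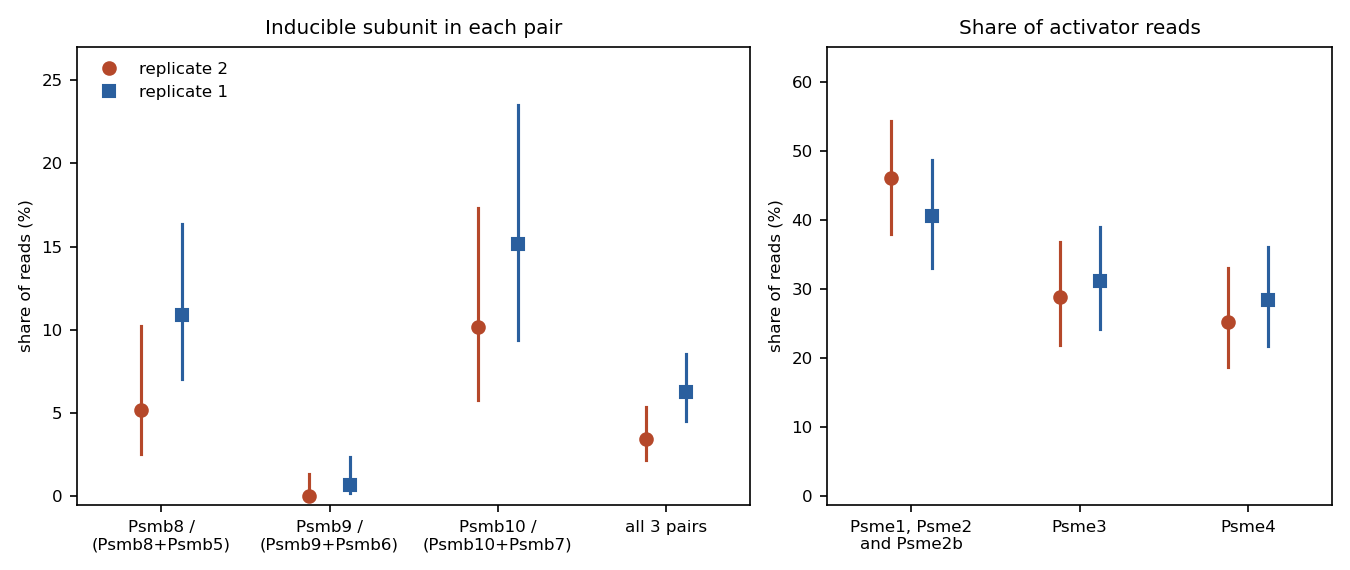
Share of reads in percent (vertical axes) of the inducible subunit within each catalytic pair (left) and of each activator group among activator reads (right), in replicate 2 (circles) and replicate 1 (squares) with 95% Wilson intervals. Psmb9 lies at 0% and 0.660% of its pair, and the intervals of the libraries overlap for every share drawn.

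The activators that can take the place of the cap had fewer reads than any ring subunit in replicate 2. Psme1 and Psme2, the alpha and beta chains of the interferon-inducible PA28 ring, had 24 and 39 reads in replicate 2 and 21 and 39 reads in replicate 1. Psme3, the nuclear PA28 gamma, had 40 reads in replicate 2 and 46 reads in replicate 1. Psme4, which encodes PA200, had 35 reads in replicate 2 and 42 reads in replicate 1. The alpha and beta chains, with the retrocopy Psme2b, made 46.0% (95% interval 38.0% to 54.3%) of the activator reads in replicate 2 and 40.5% (33.0% to 48.6%) in replicate 1. That share rests on how Psme4 reads are counted: with annotated transcripts alone its mean over the libraries was 56.25%, against 43.3% with all transcripts. The inhibitor Psmf1, also called PI31, had 30 reads in replicate 2 and 25 reads in replicate 1. None of the 5 that were tested, which leaves out Psme2b, passed the test between libraries.

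The assembly factors were read at low levels, at 7.73 reads in replicate 2 and 6.95 reads in replicate 1 for each 100 reads of the rings. Of the chaperones of the base, Psmd5 had 40 reads in replicate 2 and 37 reads in replicate 1, Psmd10, also called gankyrin, had 27 and 20 reads, and Psmd9 had 21 and 18 reads in the same order. The chaperones of the alpha ring were Psmg1, with 19 reads in each library, Psmg2, with 27 reads in replicate 2 and 13 in replicate 1, Psmg3, with 9 reads in each, and Psmg4, with 10 and 15 reads in the same order. Psmg2 and Psmg1 act as a pair. The fold of Psmg2 was 2.06 (95% interval 1.08 to 3.95) and that of Psmg1 was 0.992 (0.531 to 1.86), and these intervals overlap. The adjusted p of Psmg2 was 0.238 in the Fisher's exact test, and no assembly factor passed it.

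Partners of the proteasome that the name rule does not catch were read at counts from 24 to 1251 summed over the libraries. Of 21 such names, 20 carried a read and were tested, 1 was higher and 1 was lower in replicate 2, beside 4.25% and 3.56% of all genes tested, and their median log2 ratio was -0.01, equal at this rounding to that of all genes tested. Ecpas, the scaffold that keeps core and cap together, was higher in replicate 2, with 343 reads against 232 reads in replicate 1 and an adjusted p of 2.25e-04 in the Fisher's exact test. Adrm1, a ubiquitin receptor of the base, was lower in replicate 2, with 155 reads against 216 reads in replicate 1 and an adjusted p of 0.0217 in the Fisher's exact test. Neither call held with edgeR's exact test at an assumed dispersion of 0.01, with adjusted p of 0.330 for Ecpas and 0.591 for Adrm1, and that of Adrm1 was 0.0729 in the Fisher's exact test on annotated transcripts alone. Ecpas had under 10 reads summed on annotated transcripts, too few for that test, so its counts rest mostly on unannotated models. Pomp, the chaperone that matures the beta ring, had 173 reads in replicate 2 and 149 reads in replicate 1, more than any of the 7 assembly factors above.

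The deubiquitinases that dock on the cap, Usp14 and Uchl5, had 91 and 49 reads in replicate 2 and 72 and 62 reads in replicate 1. The ubiquitin ligase Ube3c had 83 reads in replicate 2 and 72 in replicate 1, the cap-bound thioredoxin Txnl1 had 102 reads in each, and Akirin2, which takes part in nuclear import of the particle, had 36 and 38 reads in the same order. Of the shuttle factors, Ubqln4 had 341 reads in replicate 2 and 268 in replicate 1, Ubqln1 had 73 and 72 reads, and Ubqln2 had 12 in each. Zfand5, which stimulates the proteasome and is known from muscle wasting in mice, had 400 reads in replicate 2 and 339 in replicate 1. The unfoldase Vcp had 624 reads in replicate 2 and 627 in replicate 1.

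Nfe2l1 is the transcription factor known to raise proteasome genes when the particle fails, after it has been deglycosylated by Ngly1 and cut by Ddi2. Nfe2l1 had 500 reads in replicate 2 and 525 reads in replicate 1, against 43 and 55 reads for its relative Nfe2l2. Ngly1 had 86 reads in replicate 2 and 102 in replicate 1, and Ddi2 had 15 and 30 reads in the same order. Both factors are known to bind the antioxidant response element. Its core, TGACNNNGC, was searched on both strands in RefSeq promoter windows of GRCm38.p6, the assembly also called mm10, from 250 bases before to 50 bases after each start. Windows were at hand for 42 of the 50 members, 45 windows in all. The core lay in the windows of 6 of the 42 genes, or 14.3%, against 14.0% of 27025 genes with windows, so the members' share was close to that of all genes. The GC content of member windows had a median of 57.3% against 52.7% in all windows, and the number of CG pairs a median of 19 against 7. The hits are shown because they are the letters counted here, each read 5′ to 3′ on the gene's strand with the match in capitals.
Psmb5, chr14:54618024-54618052: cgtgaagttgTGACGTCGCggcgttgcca
Psmb6, chr11:70525338-70525366: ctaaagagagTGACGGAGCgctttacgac
Psmd9, chr5:123228149-123228177: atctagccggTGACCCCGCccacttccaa
Psme4, chr11:30771758-30771786: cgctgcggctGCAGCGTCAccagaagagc
Psmc6, chr14:45329587-45329615: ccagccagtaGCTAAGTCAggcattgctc
Psmd12, chr11:107479278-107479299: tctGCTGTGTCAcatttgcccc
The matches of Psmb5, Psmb6, Psmd9 and Psme4 began 47, 9, 31 and 7 bases before the RefSeq start. Those of Psmc6 and Psmd12 began 227 and 247 bases before it. GENCODE places the start of Psme4-201 at 30771726, so the Psme4 match lies within exon 1 of that transcript. A match is a description of letters and does not show a bound site.

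Reads of the proteasome genes mostly followed annotated transcripts. Of the members' reads, 87.4% in replicate 2 and 89.02% in replicate 1 lay on annotated transcripts, against 65.1% and 65.6% of the reads of all genes with an annotated complete coding sequence. Each model was also compared with the annotated coding sequence, and called whole when it spanned one and had every intron of it and no other within it. Such models took 88.5% of the members' reads in replicate 2 and 90.6% in replicate 1, against 68.7% and 69.8% for all these genes. Models that lacked the 5′ end took 6.16% of the members' reads in replicate 2 and 4.58% in replicate 1. For all these genes the values were 6.77% and 5.89% in the same order. Taken per gene with at least 10 reads summed, the median share on whole coding models was 92.1% in members and 81.1% in coding genes. Of the 45 members with at least 10 reads summed, 44 had over 50% of their reads on whole coding models, or 97.8%, against 80.1% of 8929 coding genes. The exception was Psme4, whose annotated transcript has 47 exons: 10 of 35 reads in replicate 2 and 6 of 42 reads in replicate 1 were whole, and 19 and 25 reads in the same order lacked the 5′ end.

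**Figure D4:**
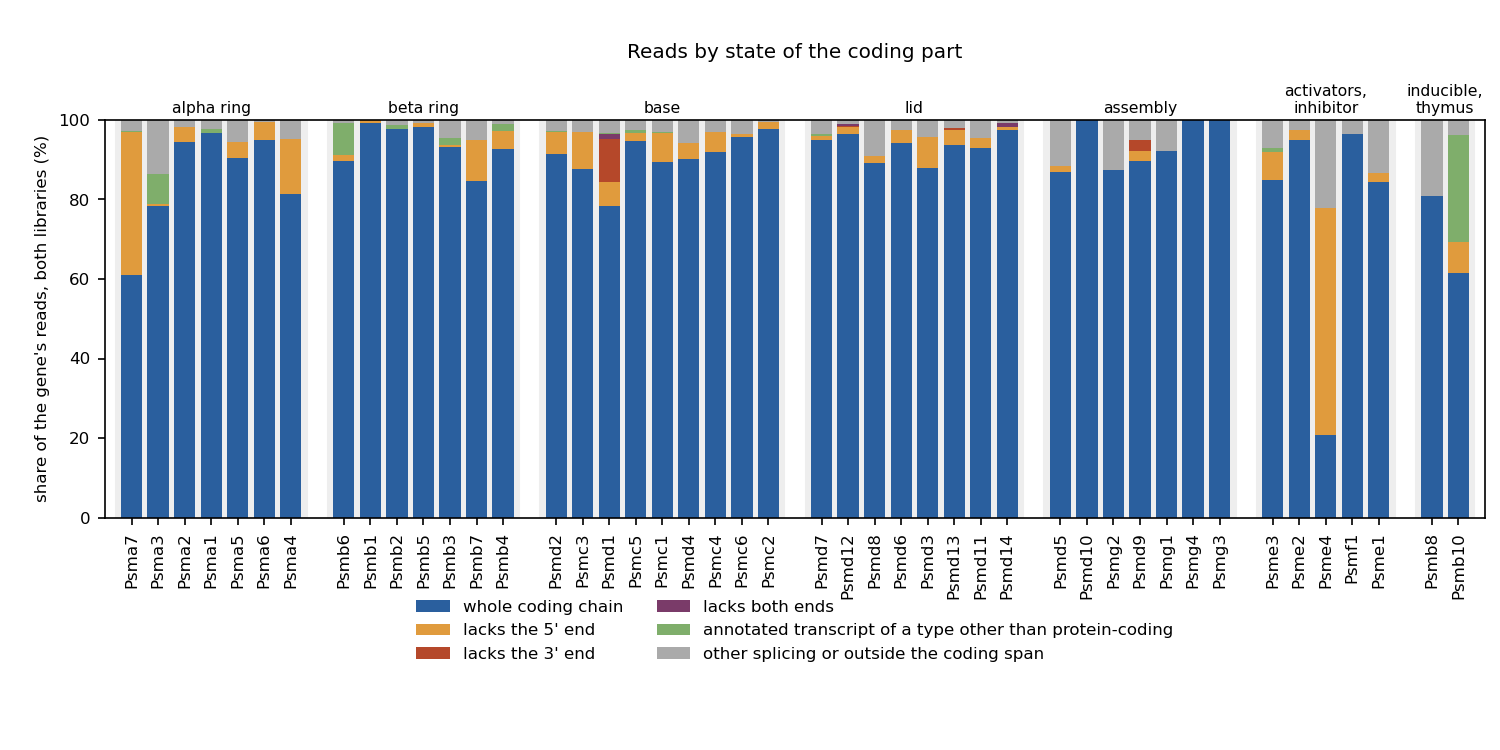
Share of each gene's reads (vertical axis, percent, both libraries together) by the state of the coding part, for members with at least 10 reads summed, grouped by class. Psma7, Psme4 and Psmb10 have the smallest blue bars, and the part of Psma7 and Psme4 that is not whole mostly lacks the 5′ end (orange).

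Most exons of the members were included in nearly all reads. Of 336 internal exons with at least 20 informative reads in each library, 316 were included in over 95% of the reads, or 94.1%, against 86.2% of 43181 such exons in all genes. Another 17, or 5.06%, were included in under 5% of the reads, against 9.18% in all genes. The other 3 member exons were alternative, with a pooled inclusion of 5% to 95%. None of the 3 differed between the libraries in Fisher's exact test, with unadjusted p from 0.703 to 1, beside 0.652% of the 1994 alternative exons of all genes called. The 85-base exon of Psma4 at chr9:54951344-54951428, upstream of the start codon at 54952106, was included in 6 of 36 informative reads in replicate 2 and 8 of 48 in replicate 1, which is 16.7% in each. The other 2 exons belong to Psmd8, at chr7:29178919-29179021 and chr7:29179143-29179215, and were included in 91.7% to 92.9% of reads in both libraries.

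The dominant transcript of a gene took a median of 90.8% of the reads in the 38 members tested, against 78.0% in 5025 genes. In Fisher's exact test 0 of the 38 members differed between the libraries in the dominant share after adjustment, beside 1.65% of all genes called. Without adjustment, 6 members had p under 0.05, or 15.8%, against 8.48% of all genes tested. These sets were not matched for depth. In the test of gene levels, members had a median of 214 reads summed against 53 in all genes, and deeper genes have less counting error. The 6 members were Psma1, Psma7, Psmb5, Psmb6, Psmc3 and Psmc5, with adjusted p from 0.157 to 0.518. In Psmb5 the share was 100% in replicate 2 and 95.5% in replicate 1, and in the other 5 the value of replicate 2 was the smaller one. In Psmc3 it was 84.3% in replicate 2 and 91.3% in replicate 1. Its unannotated single-exon models, counted together wherever they lie in the gene, took 44 and 16 reads in the same order. In Psmb6 it was 86.6% in replicate 2 and 92.4% in replicate 1, while the retained-intron transcript Psmb6-202 took 32 and 16 reads in the same order.

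The ubiquitin receptor Psmd4 had its reads split between a pair of annotated coding transcripts. Psmd4-202 had 90 of 177 reads in replicate 2 and 98 of 183 reads in replicate 1, or 50.8% (95% interval 43.5% to 58.1%) and 53.6% (46.3% to 60.6%). Psmd4-201 had 69 reads in replicate 2 and 68 reads in replicate 1. They differ at the end of exon 7 of 10, which starts at 95033909 on chromosome 3 in Psmd4-201 and at 95033918 in Psmd4-202 and ends at 95034026 in both, on the minus strand. The 9 bases are 3 codons and keep the reading frame. The junction is shown from GENCODE M21, within chr3:95033750-95033932 on the minus strand, with the bases of Psmd4-201 alone in capitals.
Psmd4-201: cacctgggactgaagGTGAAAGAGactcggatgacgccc
Psmd4-202: cacctgggactgaagactcggatgacgccc

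Psma3 showed a small change of another kind. Its main transcript Psma3-202 had 144 of 197 reads in replicate 2 and 164 of 206 reads in replicate 1. Unannotated single-exon models of the gene, counted together, had 29 reads in replicate 2 and 15 reads in replicate 1. Psma3-201, annotated as a target of nonsense-mediated decay, had 11 reads in replicate 2 and 14 reads in replicate 1, or 5.58% and 6.80%. It enters exon 3 at 70983324 on chromosome 12, and Psma3-202 enters it at 70983319, 5 bases earlier. The annotated coding part is 255 codons in Psma3-202 and 40 codons in Psma3-201. The junction lies within chr12:70978801-70983338 on the plus strand, with the bases of Psma3-202 alone in capitals.
Psma3-202: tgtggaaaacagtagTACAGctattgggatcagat
Psma3-201: tgtggaaaacagtagctattgggatcagat

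Of 481 transcript models of the members, 55.5% rested on 1 read, and 6 unannotated spliced models had at least 5 reads in each library. The most abundant belonged to Psmc2. It had 103 of 105 reads in replicate 2 and 114 of 117 reads in replicate 1 on 12 of the 13 annotated exons, with the whole coding part. The exon left out is the noncoding first one, of 235 bases at chr5:21785283-21785517, and 0 reads of the gene lay on a model that reaches it in either library. The model starts at 21786650, and its first exon runs through the start codon at 21786689.

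Psma7 had the second such model, with 109 of 267 reads in replicate 2 and 63 of 213 reads in replicate 1. That is 40.8% (95% interval 35.1% to 46.8%) in replicate 2 and 29.6% (23.8% to 36.0%) in replicate 1, and the intervals overlap. The model holds exons 4 to 7 of the 7 exons of Psma7-201 and spans chr2:180036374-180038187 on the minus strand. Its 5′ edge is the annotated edge of exon 4, and the deposited models give no finer position of the read starts. Of 248 coding codons, 116 lie wholly before exon 4, and the first in-frame ATG from there is codon 211. The edge is shown within chr2:180038158-180038739 on the minus strand, with the first 30 bases of exon 4 in capitals.
Psma7-201: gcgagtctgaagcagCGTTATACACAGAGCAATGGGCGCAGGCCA

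Psmd1 had a model that stops early, with 10 of 227 reads in replicate 2 and 38 of 228 reads in replicate 1. That is 4.41% (95% interval 2.41% to 7.92%) in replicate 2 and 16.7% (12.4% to 22.05%) in replicate 1, intervals that do not overlap, although no test was planned for a model that is not dominant. It follows Psmd1-201 from exon 1 into exon 22 of 25 and ends within that exon, where 1 annotated transcript of the gene also ends. It holds 839 of the 953 coding codons.

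Psmd8 had an unannotated model that joins exon 1 to a site within exon 4, with 13 of 160 reads in replicate 2 and 18 of 254 reads in replicate 1, or 8.12% and 7.09%. It skips the 2 alternative exons named above and the first 34 bases of the next exon. The bases left out are 210, or 70 of the 289 coding codons of Psmd8-202, and the reading frame is kept. The new junction joins 29180277 to 29177197 on chromosome 7, minus strand. Its splice motif was not read, because no genome sequence was at hand. The annotated and the new junction share the first 15 bases, and the capitals mark what follows, within chr7:29179201-29180291 for Psmd8-202 and chr7:29177183-29180291 for the model.
Psmd8-202: ctgggccgcctgaagTTGGTTCTGCTTGAG
Psmd8 model: ctgggccgcctgaagCTCCTGGGCCTCAAT
The share of this model differed little while the gene's level was lower in replicate 2: Psmd8-202 had 88.1% of the reads in replicate 2 and 89.8% in replicate 1. Psmd8-201, which has the same introns and a coding part of 353 codons, starts 149 bases further upstream and had 0 reads.

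The other unannotated spliced models were rarer. Psmc1 had a model of 10 exons that starts at 100112331 on chromosome 12 and lacks the first of 11 exons and the start codon, with 13 of 202 reads in replicate 2 and 11 of 212 reads in replicate 1. Psma4 had a model of 10 exons that includes the 85-base exon before the start codon, with 5 of 51 reads in replicate 2 and 8 of 51 reads in replicate 1, and its coding part was whole. Psmd11 had annotated transcripts with different ends, Psmd11-201 with 74 of 90 reads in replicate 2 and 90 of 109 reads in replicate 1, and Psmd11-214 with 10 and 11 reads in the same order, and both hold a whole coding part.

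**Figure D5:**
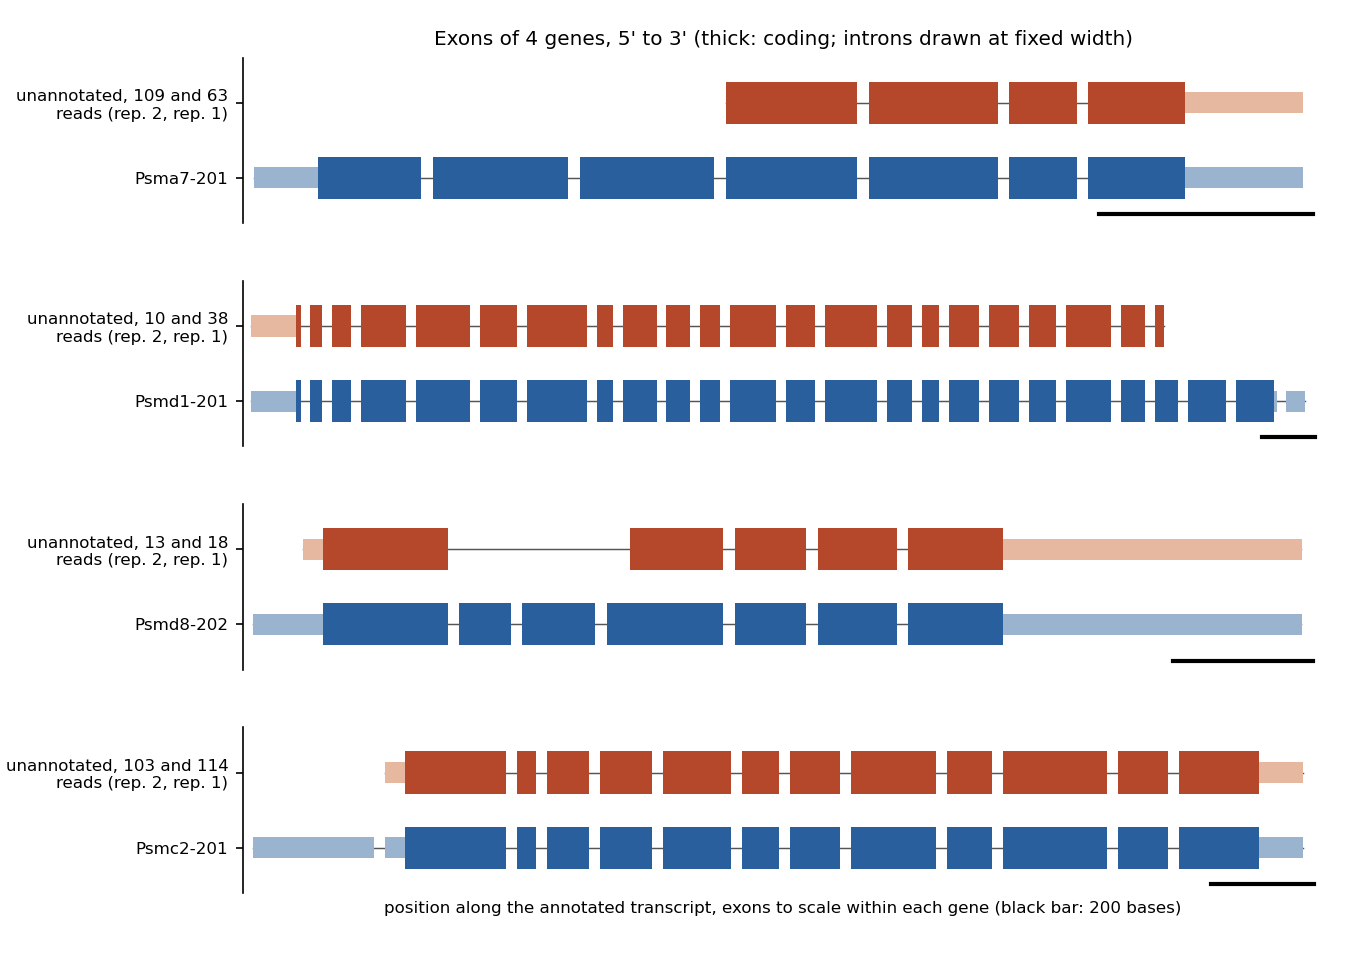
Exons of Psma7, Psmd1, Psmd8 and Psmc2 in their most abundant unannotated spliced model (upper row of each pair) and in the annotated transcript (lower row), 5′ on the left; exons are to scale within each gene, introns have a fixed width, thick blocks are coding, and the black bar is 200 bases. The Psma7 model lacks exons 1 to 3, the Psmd1 model stops in exon 22, the Psmd8 model leaves out 210 coding bases, and the Psmc2 model lacks only the noncoding first exon.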

How the data were processed

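RNA was sequenced as long reads in 2 libraries, which form 1 group. The deposited tables hold raw counts of reads per transcript model, with no normalization, placed on mm10 with GENCODE M21 per the deposited notes; the models carry the source name TALON per the file headers. The sources used here name no aligner, filter or version. Deposited exon coordinates and model lengths are in bases, per the file headers.

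Models were joined between libraries by transcript identifier where annotated and otherwise by gene and intron chain. Unannotated models without introns were pooled into a single entry per gene. Gene counts are sums over models, scaled to the total of the library (CPM), and log2 ratios used CPM + 1. Genes with at least 10 reads summed were tested by two-sided Fisher's exact tests with Benjamini-Hochberg adjustment over all genes and a threshold of 0.05 (scipy 1.17.1). Dominant transcripts needed 20 reads and exons 20 informative reads in each library, tested in the same way. Spike-in genes were left out of the tests. Intervals are Wilson's at 95%, and a fold's interval comes from the split of reads; they cover counting error only. Over genes with at least 20 reads, chi-square over degrees of freedom between the libraries was 1.79 in 44 members and 5.90 in all 7470 genes, so they do not repeat 1 library. Alternatives used edgeR 4.0.16 and DESeq2 1.42.0 for library sizes and edgeR's exact test. The tests were checked on simulated counts with counting error only. That check does not cover the wider spread between these libraries. Gene bounds, coding parts and junction sequences come from GENCODE M21.

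The members, lists and tests were chosen with earlier results of these data known. Read counts were given by rule for catalytic pairs, activators, assembly factors, the 3 most and 3 least abundant genes of rings, base and lid, called genes, the 5 largest and 5 smallest ratios, up to 10 unannotated spliced models with at least 5 reads in each library, and the listed partners with at least 20 reads. Some items that these rules cover are not reported here. Psma1, Psmd4, Psma3-201, Psmb6-202, Psmd11-214 and the single-exon models of Psmc3 and Psma3 were named after their values were seen.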

Additional observations from a re-analysis of the deposited data

Results flagged for a closer look

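Reads on the strand opposite a member were counted apart from the genes and stood above 3 reads, the limit that a count of 0 allows, at 3 members. Models opposite Psmd11 held 20 reads in replicate 2 and 8 reads in replicate 1, spread over 11 models. Models opposite Psme4 held 7 reads in replicate 2 and 4 reads in replicate 1, and those opposite Psmd1 held 5 reads and 2 reads in the same order. These reads entered no level given above, and the strand of the library was not given in the sources used here.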

How the results depend on the processing

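Annotated transcripts alone gave lower levels: 3775 CPM for all members, 561.8 CPM for the alpha ring, 708.7 CPM for the beta ring, 1359 CPM for the base and 93.8 CPM for the activators and inhibitor, against 4278, 689.0, 736.7, 1596 and 126.2 CPM with all transcripts, by construction since reads are left out. They raised the PA28 alpha and beta share to 56.25%. Without mitochondrial-genome and spike-in reads in the library total, all members had 4400 CPM. With spliced models alone, 89.8% of member reads were on annotated transcripts, against 88.2%. A pseudocount of 10 CPM narrowed the distance between highest and lowest log2 level of ring, base and lid genes to 3.24, against 3.53. The Fisher's exact test called 1 member, Psmd8, under all 4 other settings, and edgeR's exact test called 0 members with TMM and 0 with DESeq2 library sizes. Those 2 settings also ended the calls of Psmd8, Adrm1 and Ecpas, and edgeR called 176 genes of 9341 against 730. Ecpas had too few reads on annotated transcripts to be tested there. Leaving out each replicate moved the level of all members between 4216 and 4340 CPM and the share of inducible subunits between 3.41% and 6.24%. The folds of the lid without Psmd8 and with Sem1 were chosen after seeing the data and lay within the interval of the lid. No paired analysis was possible because the labels define 1 group. Depth limits the inducible subunits, activators and assembly factors, which had under 50 reads each in both libraries.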
